A study of Mus musculus with 2 samples.

Results

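The genes described here are 6 genes of heart muscle, Ankrd1, Ankrd23, Xirp1, Xirp2, Flnc and Nrap, chosen by name from the 15848 annotated genes that had reads in at least 1 of 2 long-read RNA sequencing libraries of mouse heart. Each read comes from 1 cDNA copy, so a read shows which exons were joined in 1 molecule. The only group, heart, was tissue of B6CASTF1/J females with no treatment named, a first-generation hybrid strain, at an age of 2 months, and each of its 2 libraries, called replicate 1 and replicate 2, started with 2 µg of total RNA. By the sample labels the animals had different numbers, but the library text named the same animal for both and both had the same donor, so the spread between the libraries may be technical. The labels name no stretch or overload, so what is described is the level and structure of these transcripts without it, and how far they repeated between the libraries.

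Heart muscle cells bear force on their Z-discs, the anchor lines of the sarcomeres, and on their intercalated discs, where neighbouring cells join. Ankrd1 and Ankrd23 encode ankyrin repeat proteins that bind the elastic protein titin in the sarcomere and can also enter the nucleus, and Ankrd1 is known for its rise in loaded and failing hearts. Xirp1 and Xirp2 encode Xin proteins, whose repeats bind actin filaments at the intercalated disc. Flnc encodes filamin C, which crosslinks actin at Z-discs and intercalated discs, and Nrap encodes a scaffold with a LIM domain and nebulin-like repeats that takes part in the assembly of actin filaments where myofibrils end.

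Replicate 1 held 859191 reads of annotated genes and replicate 2 held 707758, and a level here means reads in every 1000000 of these (CPM), so that 1 read equalled 1.16 CPM in replicate 1 and 1.41 in replicate 2. Intervals and p-values reflect counting error alone, because the tests hold no term for variation between libraries. Copies of 1 molecule may also be counted more than once, since no molecular identifiers tell them apart. The tissue label held in both libraries. All 7 markers of cardiac muscle had reads, 36183 in replicate 1 and 32007 in replicate 2, whereas 3 of 10 markers of skeletal muscle, in which most of the 6 genes are also active, had reads, 4 and 3 in all. The skeletal myosin genes Myh4, Myh1 and Myh2 had none. Smooth muscle markers summed to 152 and 107 reads, fibroblast markers to 667 and 497, endothelial markers to 180 and 169, and macrophage markers to 124 and 84, with all 4 markers of each detected. In whole tissue, fewer cells of a type and less RNA per cell cannot be told apart.

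The 6 genes together held 898 reads in replicate 1 (0.105% of the reads of annotated genes) and 792 in replicate 2 (0.112%). Ankrd23 was the most abundant of them, with 295 reads in replicate 1 and 222 in replicate 2, or 329 ± 20.99 CPM (SD, n = 2), rank 426 among annotated genes. Ankrd1 had 250 and 195 reads, or 283 ± 10.9 CPM, and rank 513. Nrap had 179 and 198 reads, or 244 ± 50.5 CPM, and rank 599. These 3 genes stood apart from the other 3, whose levels were below 100 CPM in both libraries. Xirp2 had 76 and 66 reads (90.9 ± 3.39 CPM, rank 1766), Xirp1 had 57 and 60 (75.6 ± 13.0 CPM, rank 2159) and Flnc had 41 and 51 (59.9 ± 17.2 CPM, rank 2671).

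**Figure D1:**
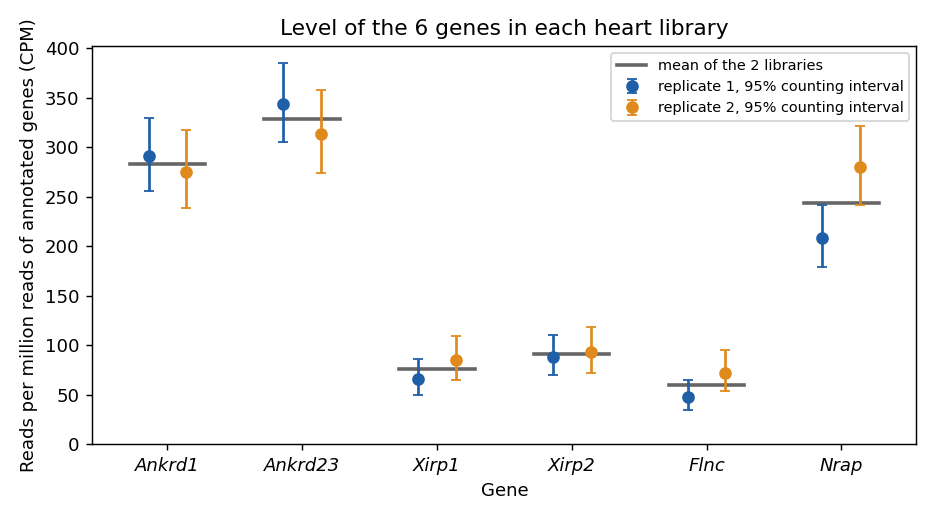
Level of each of the 6 genes in CPM, with replicate 1 left of replicate 2 for each gene. Points are libraries with 95% counting intervals and grey bars are means; Ankrd23, Ankrd1 and Nrap lay at 329, 283 and 244 CPM and the other 3 genes at 90.9 CPM or less.

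Levels were also set against the length of the leading annotated isoform, which ranged from 1964 bases in Ankrd23 to 11979 in Xirp2. Since each read comes from 1 cDNA copy whatever its length, CPM per kb is a second scale and not a corrected level. On this scale both values of Ankrd23 (175 CPM per kb in replicate 1 and 160 in replicate 2) lay above both of Ankrd1 (144 and 136). Counting error was not weighed in this order. Nrap followed at 39.1 and 52.4 CPM per kb and Xirp1 at 11.4 and 14.5. Xirp2 (7.38 and 7.78 CPM per kb) and Flnc (5.34 and 8.06) overlapped, so their order was not resolved.

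Between the libraries none of the 6 genes passed an exact binomial test of their split of reads, given both library totals, adjusted by the Benjamini-Hochberg method over all 9334 genes that had 10 reads or more. Of those genes 0.321% were called, with an adjusted p under 0.05 and a change of 2-fold or more, and 1.15% passed on p alone. By unadjusted p under 0.05, 1 of the 6 passed, against 796 of all 9334 genes. The ratio of replicate 1 over replicate 2 was 1.06 for Ankrd1 (95% interval 0.872 to 1.28; adjusted exact p = 1) and 1.09 for Ankrd23 (0.917 to 1.31; adjusted exact p = 0.922). It was 0.783 for Xirp1 (0.535 to 1.14; adjusted exact p = 0.842) and 0.949 for Xirp2 (0.673 to 1.34; adjusted exact p = 1). Flnc had a ratio of 0.662 (0.428 to 1.02; adjusted exact p = 0.625). Nrap, at 208 CPM in replicate 1 and 280 CPM in replicate 2, had a ratio of 0.745 (0.605 to 0.916), with an unadjusted exact p of 0.00439 and an adjusted one of 0.193. On annotated models only, the Nrap ratio was 1.02 (adjusted exact p = 1), so its direction turned. The intervals give the ratios that counting error allows for each gene, without adjustment for the number of genes. What size of difference could be detected at these depths was not tested.

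The ratio moved with transcript length over all genes. The median log2 ratio of replicate 1 over replicate 2 was 0.16 for genes with a leading isoform under 1000 bases, 0.0033 between 1000 and 2000 bases, where Ankrd23 lies, and -0.05 between 2000 and 3000, where Ankrd1 lies. It was -0.13 between 3000 and 5000 bases and -0.14 between 5000 and 8000, where Nrap and Xirp1 lie, and came back to -0.08 over 8000 bases, where Flnc and Xirp2 lie. The log2 ratios of the short Ankrd1 and Ankrd23 were 0.08 and 0.13, and the 4 longer genes were below 0. With a smooth trend on length removed, a step chosen after the data were seen, the log2 ratio of Nrap was -0.27 (adjusted exact p = 0.774), that of Flnc -0.48, Xirp1 -0.21, Xirp2 0.01, Ankrd23 0.16 and Ankrd1 0.11. What part length has in the Nrap ratio was not tested beyond this.

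**Figure D2:**
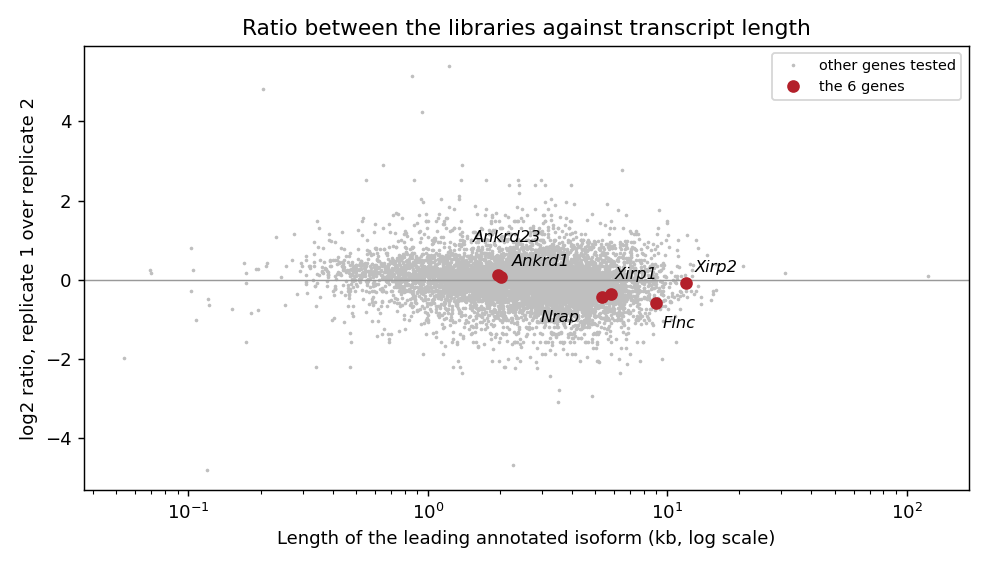
The log2 ratio of replicate 1 over replicate 2 against the length of the leading annotated isoform in kb (log scale), 1 point per tested gene, with the 6 genes in red. Ankrd1 and Ankrd23 lay just above 0 at about 2 kb, and Nrap, Xirp1, Flnc and Xirp2 below 0 at greater lengths.

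How completely a messenger RNA was read set what its reads could show. Each read had been assigned by the authors to a transcript model. A model is annotated, incomplete, a new combination of known splice sites, a model with a new splice site, or genomic. Incomplete models lack annotated junctions at an end of the isoform, where the model stops short or keeps an intron. Genomic reads show no spliced structure of the gene and are mostly single-exon. Over all annotated genes 76.0% of reads in replicate 1 and 75.7% in replicate 2 were on annotated models. Ankrd1 (76% and 79.5%) and Ankrd23 (76.6% and 71.6%) were close to that value, which takes no account of length. Xirp1 had 35.1% and 41.7%, Nrap 22.9% and 16.7%, Flnc 4.88% and 13.7%, and Xirp2 1.32% and 1.52%, or 1 read in each library. Incomplete models held most reads of 3 genes, with 97.4% and 98.5% in Xirp2, 87.8% and 84.3% in Flnc and 66.5% and 59.6% in Nrap, against 35.1% and 31.7% in Xirp1. In Xirp1 most of these reads, 11 in replicate 1 and 13 in replicate 2, were on a model that spans the whole gene and keeps an intron. Such reads lower the annotated share of Xirp1 without a missing end. Among genes with a leading isoform over 8000 bases and at least 20 reads in each library, the median annotated share was 54.9% in replicate 1 and 53.8% in replicate 2, and none of the 79 others had a lower mean share than Xirp2. For Flnc, 13 of 79 were lower, and for Nrap 59 of 354 in its own class of length. Ankrd1, Ankrd23 and Xirp1 also had mean shares below the median of the others in their classes of length. The mean was 77.7% against 83.9% for Ankrd1, with 397 of 1120 lower. It was 74.1% against 88.5% for Ankrd23, with 297 of 1155 lower, and 38.4% against 61.4% for Xirp1, with 103 of 354 lower. No member's annotated share differed between the libraries by Fisher's exact test, with unadjusted p from 0.153 (Nrap) to 1 (Xirp2), where 0.129% of the 4651 genes tested passed.

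**Figure D3:**
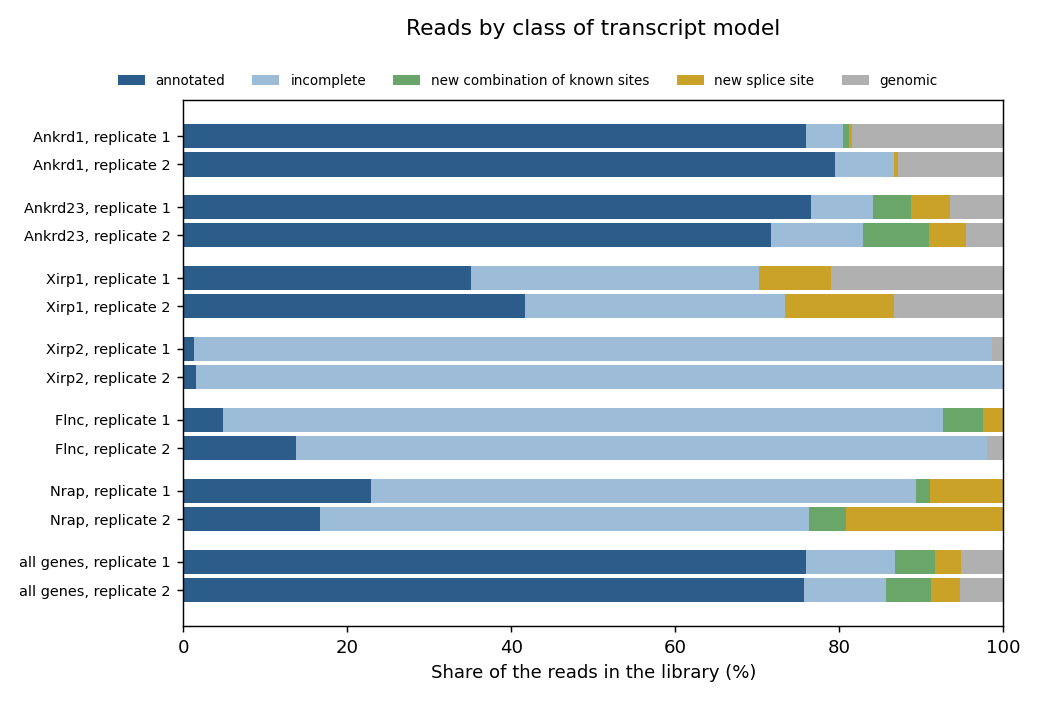
Share of reads (%) by class of transcript model for each gene, replicate 1 above replicate 2, with all annotated genes at the bottom. Annotated models held about 76% of the reads of Ankrd1 and 1.32% to 1.52% of those of Xirp2, where incomplete models held nearly all.

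The share of reads on models that start within 100 bases of an annotated 5′ end was likewise highest in the ankyrin repeat genes and lowest in Xirp2. It was 85.4% in replicate 1 and 83.3% in replicate 2 for Ankrd23 and 77.6% and 80.5% for Ankrd1. Xirp1 had 64.9% and 78.3%. With 200 bases allowed its shares were 78.9% and 78.3%. The count rose from 37 to 45 reads in replicate 1 and stayed at 47 in replicate 2. A model of 8 reads in replicate 1 starts inside exon 2 of the leading isoform and matches this rise in number. The wider window therefore does not show that more reads reached the 5′ end of that isoform. Nrap had 32.4% and 38.4%, Flnc 9.76% and 13.7%, and Xirp2 1.32% and 1.52%. Genes of 1000 to 2000 bases, the class of Ankrd23, had median shares of 95.7% and 96.2%. Those of 2000 to 3000 bases, the class of Ankrd1, had 93.8% and 93.9%. In the class of Nrap and Xirp1, 5000 to 8000 bases, the medians were 79.1% and 81.0%, and over 8000 bases they were 71.0% and 76.9%. Model starts are not read starts: the 24 genomic reads of Ankrd1 on the largest such model in replicate 2 stood on a model 7 bases long, and the 45 in replicate 1 on a model of 848 bases with the same 3′ end.

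Ankrd1, on the minus strand at chr19:36111961-36120099 of mm10, was read almost only as 1 isoform. All 190 annotated reads of replicate 1 and all 155 of replicate 2 were Ankrd1-205, of 6 annotated transcripts. It differs from Ankrd1-201 by 12 further bases at the end of exon 8 of 9, shown here in capitals at the end of that exon's last 30 bases (chr19:36114977-36115006, minus strand, GENCODE M21 on GRCm38), because nearly every read that left this exon for the next had them.
Ankrd1-205 exon 8 end: ttcggtgcggacctcaagGTCAAGAACTGT
These were 200 reads in replicate 1 and 168 in replicate 2, and 1 further read in replicate 1 used an unannotated donor 2 bases short of the end shown. The same 200 and 168 reads passed over an exon of 85 bases that Ankrd1-204 has, for which 0 reads allow a share of up to 1.5% in replicate 1 and 1.79% in replicate 2. No model of another annotated isoform of this titin-binding protein had a read, although 1 read in replicate 1, on an unannotated combination, used an annotated junction that Ankrd1-205 lacks. A further 46 reads in replicate 1 (18.4%) and 25 in replicate 2 (12.8%) were genomic and showed no isoform.

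Ankrd23, on the minus strand at chr1:36530188-36536883, was read mainly as Ankrd23-201, with 214 of 226 annotated reads in replicate 1 (94.7%) and 153 of 159 in replicate 2 (96.2%). Ankrd23-204 followed with 11 and 6 reads and Ankrd23-202 with 1 and 0. None of the 6 genes met the limits for a test of isoform shares between libraries, in which 0.0964% of 1037 genes passed. In Ankrd23-201 exons 5, 6, 7 and 8 are 99 bases each, or 33 codons, the length of an ankyrin repeat, and Ankrd23-204 lacks exon 7. That exon is printed in capitals between the 15 bases that adjoin it on either side in the mRNA (chr1:36531909-36532007, minus strand), because it is a coding unit by which the 2 forms differ.
Ankrd23 exon 7: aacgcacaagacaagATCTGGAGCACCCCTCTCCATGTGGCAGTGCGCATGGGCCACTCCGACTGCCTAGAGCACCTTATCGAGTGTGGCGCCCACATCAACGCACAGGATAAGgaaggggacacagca
It was skipped in 13 of 270 reads of replicate 1 (4.81%; the Wilson 95% interval runs from 2.84 to 8.06) and in 7 of 205 of replicate 2 (3.41%, 1.66 to 6.88), shares whose intervals overlap. Intron 6 beside it, of 104 bases, was kept in 15 of 257 reads in replicate 1 (5.84%, 3.57 to 9.41) and in 9 of 197 in replicate 2 (4.57%, 2.42 to 8.45). Intron 5, of 91 bases, was kept in 4 and 3 reads, and intron 7, of 87 bases, in 2 and 5. Of the 5 unannotated spliced structures of Ankrd23 found in both libraries, the most used was the isoform of 8 exons that keeps intron 6 alone, with 6 reads in each library. The next had 9 exons, with an unannotated first splice donor, and 7 and 3 reads, and the third kept intron 5, with 3 and 2.

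The first exon of Ankrd23 was nearly always the one that Ankrd23-201 and Ankrd23-204 share. Its junction had 243 reads in replicate 1 and 180 in replicate 2, that of the upstream first exon of Ankrd23-202 and Ankrd23-203 had 2 and 0, and an unannotated donor had 8 and 3. One model in each library ran through from the upstream gene Ankrd39, a gene named after its values were seen. The 250 bases before the RefSeq start of the used first exon (chr1:36535740-36535989, minus strand, GRCm38.p6, RefSeq) are shown because this is the start that the reads chose, with the letters CATTCC, the core bound by TEAD factors, in capitals.
Ankrd23 upstream sequence: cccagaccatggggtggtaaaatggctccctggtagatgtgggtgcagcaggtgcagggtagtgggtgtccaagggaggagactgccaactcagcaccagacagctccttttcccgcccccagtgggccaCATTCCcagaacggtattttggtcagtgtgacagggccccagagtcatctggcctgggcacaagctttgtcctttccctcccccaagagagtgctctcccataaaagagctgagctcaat
The letters lie 120 to 115 bases before the start. They were searched on both strands, and 12.6% of 32851 RefSeq windows of 250 bases hold them. Of the 6 genes 5 had such windows, 7 in all. CATTCC was also found 2 times before Ankrd1, on the minus strand relative to the gene (210 to 205 and 123 to 118 bases before the RefSeq start, a stretch that the annotated first exon of Ankrd1-205 includes), and 1 time before 1 of 2 starts of Flnc (104 to 99). The MEF2 motif, in 2.92% of windows, was found before Xirp2 (74 to 65 bases), and the CArG box, in 1.47%, before none of the 5. A match of letters is a description and says nothing of binding.

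Xirp1, on the minus strand at chr9:120013755-120023598, has 3 exons, of 165, 3394 and 2280 bases, in Xirp1-201. This isoform had 20 reads in replicate 1 and 25 in replicate 2, all of the annotated reads of the gene. The 391-base intron 2 (chr9:120016035-120016425), which lies inside the coding range just before its end, was kept in 12 of 45 spliced reads of replicate 1 (26.7%, 95% limits 16.0 to 41.0) and in 14 of 52 of replicate 2 (26.9%, 16.8 to 40.3). The difference between the libraries was far smaller than the counting error of either share. No kept intron of the other 5 genes had so high a share, and the next with several reads was intron 6 of Ankrd23. The main model with the intron had 2 exons and 6230 bases, with 11 reads in replicate 1 and 13 in replicate 2. A further 12 reads in replicate 1 were on an unspliced model that reaches 1 base beyond the intron, and were not counted. In replicate 2 the 8 genomic reads were on a model of 134 bases with the same 3′ end, far short of the intron. The extent of a model is not that of its reads, so whether any of these reads kept the intron is not shown. The spliced reads include 8 in replicate 1 and 5 in replicate 2 that start inside exon 2 and show this junction alone. A read of that kind that keeps the intron would be unspliced and left out, so the shares may be too low.

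Exon 2 of Xirp1 began at either of 2 acceptors 3 bases apart, 4 bases before the coding start in the annotated form. The first 30 bases of the annotated, longer exon are shown (chr9:120019790-120019819, minus strand), with the 3 bases that the shorter form leaves out in capitals.
Xirp1 exon 2 start: AAGgatggctgatgcccagatgcaggtagc
The shorter, unannotated form was used in 6 of 37 reads in replicate 1 (16.2%) and in 8 of 47 in replicate 2 (17.0%). As a whole structure of 3 exons it had 5 reads and 7 reads, and was the only unannotated spliced structure of Xirp1 found in both libraries. Both forms keep the whole coding sequence, so the difference lies in the bases just before it.

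Xirp2, on the plus strand at chr2:67446002-67526614, was read mostly from its last exon alone, and hardly at all upstream of exon 7. Its leading isoform Xirp2-202 has 9 exons and 11979 bases, of which exon 7, with the Xin repeats, is 9265 bases. The junctions before exon 7 had 1 or 2 reads each in replicate 1 and 1 each in replicate 2, and those after it had 16 and 23. The last exon alone gave the most used model, with 59 reads in replicate 1 and 43 in replicate 2. A model of 3 exons that starts at or inside exon 7 had 14 and 22. This model was 11234 bases long in replicate 1 and 8522 in replicate 2. How far into exon 7 each of its reads reached was not tested. Of 2 annotated starts of exon 8, 16 bases apart, all 16 reads in replicate 1 and all 23 in replicate 2 used the longer, that of Xirp2-202. The first 30 bases of this exon are shown (chr2:67519220-67519249, plus strand), with the bases that Xirp2-202 alone has in capitals.
Xirp2-202 exon 8 start: AAACTGTTGGTCCAAGacaaggaaatttgc
This choice shifts the reading frame, since 16 is no multiple of 3, and is the isoform choice of Xirp2 that these reads resolve.

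**Figure D4:**
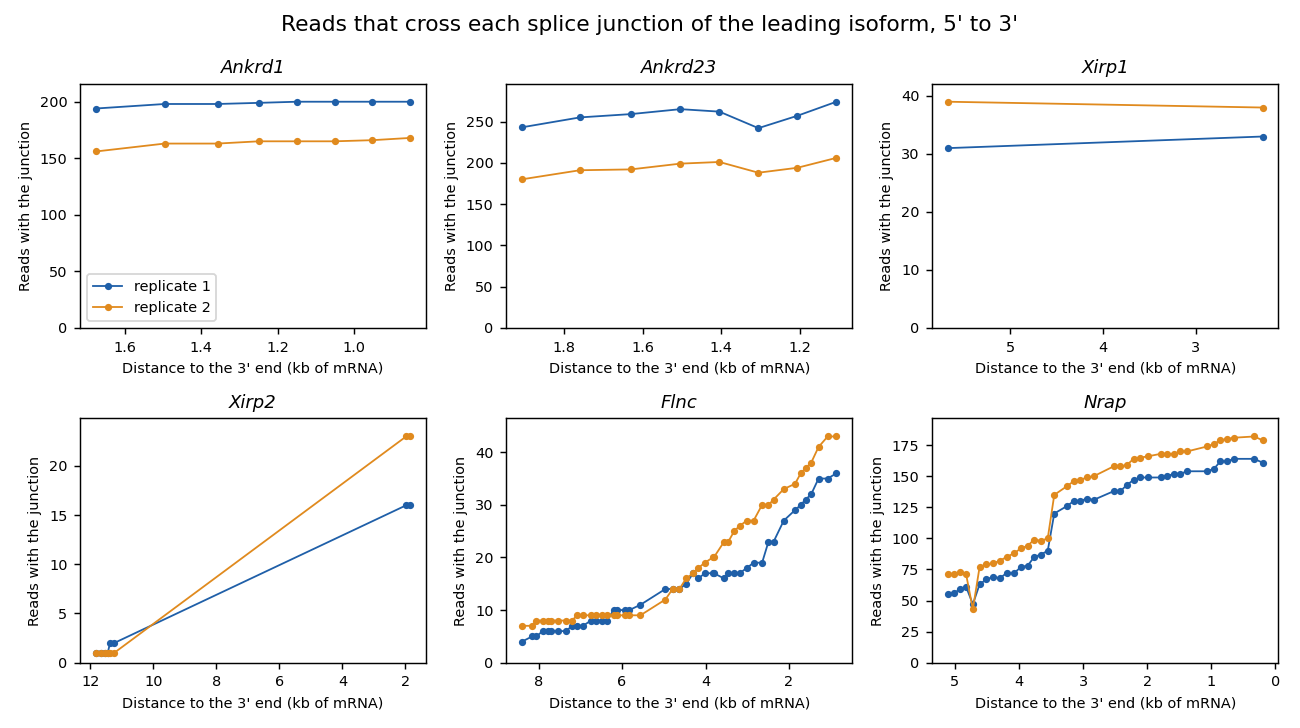
Reads that cross each splice junction of the leading isoform, against the distance from the junction to the 3′ end of the mRNA in kb, with 1 panel per gene and 1 line per library. Counts were nearly level along Ankrd1 and Ankrd23, rose over the last 4 kb of Flnc, and stepped up in both libraries of Nrap at 3.4 kb, where they reached 120 and 135.

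Flnc, on the plus strand at chr6:29433256-29461883, gave 2 reads of Flnc-202 in replicate 1 and 7 in replicate 2 whose chain of junctions is that of the annotated isoform, which has 8939 bases. Its first junction had 4 and 7 reads, the middle one, junction 23 of 46, had 14 and 14, and the last had 36 and 43. Exon 31 of Flnc-201, of 99 bases, is a coding exon that Flnc-201 has and Flnc-202 lacks, and in human an alternatively spliced exon of FLNC encodes a hinge between immunoglobulin-like repeats. It is shown in capitals between the 15 bases on either side (chr6:29452799-29452897, plus strand), because it is largely absent from these reads.
Flnc exon 31: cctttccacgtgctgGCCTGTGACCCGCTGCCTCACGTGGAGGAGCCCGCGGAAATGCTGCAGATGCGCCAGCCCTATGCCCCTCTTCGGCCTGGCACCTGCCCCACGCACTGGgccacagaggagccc
The exon was included in 1 of 17 reads in replicate 1 and in 0 of 23 in replicate 2, where a count of 0 allows a share of up to 13.0%. It was skipped in 94.1% (Wilson 95% interval 73.0 to 99.0) and 100% (85.7 to 100) of the reads. None of the 3 unannotated spliced structures of Flnc was found in both libraries.

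Nrap, on the minus strand at chr19:56320035-56390037, had 41 and 33 annotated reads, of which Nrap-201, with 41 exons and 5334 bases, took 40 in replicate 1 and 32 in replicate 2 and Nrap-203 took 1 and 1. Exon 12 of Nrap-202, of 105 bases, is a cassette that has been described in mouse as used in skeletal muscle and left out in heart. It is shown in capitals with 15 bases of its neighbours on either side (chr19:56374364-56374468, minus strand), because no read of either library had it.
Nrap-202 exon 12: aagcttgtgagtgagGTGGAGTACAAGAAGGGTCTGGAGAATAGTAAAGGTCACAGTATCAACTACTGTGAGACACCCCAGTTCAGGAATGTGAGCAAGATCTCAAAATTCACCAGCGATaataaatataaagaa
It was skipped in all 72 reads of replicate 1 and all 88 of replicate 2 that cross its place, so that a count of 0 allows a share with the exon of up to 4.17% and 3.41%. The near absence of skeletal muscle markers, with 4 and 3 reads in all, was measured in the same libraries. Other cassette exons of Nrap were nearly always present. Exon 38, of 108 bases, was in all 164 and 181 reads, and exon 16, of 108 bases, was in all 90 reads of replicate 1 and in 100 of 101 of replicate 2.

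Exon 35 of Nrap was skipped without any annotated transcript that does so. It was left out in 5 of 161 reads of replicate 1 (3.11%, 95% limits 1.33 to 7.06) and in 3 of 179 of replicate 2 (1.68%, 0.572 to 4.81). The exon, also of 105 bases, is shown with 15 bases on either side (chr19:56328996-56329100, minus strand), so that it can be set beside exon 12.
Nrap exon 35: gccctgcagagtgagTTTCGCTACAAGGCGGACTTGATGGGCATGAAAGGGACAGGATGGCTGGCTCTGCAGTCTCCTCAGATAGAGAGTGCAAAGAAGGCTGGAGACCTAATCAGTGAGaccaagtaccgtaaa
Both exons are multiples of 3 in length, so either can be left out without a shift of the reading frame. Exon 2, of 95 bases, is not, and was skipped in 2 of 58 reads in replicate 1 and in 3 of 74 in replicate 2.

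The splice choice of Nrap that varied most was the acceptor of exon 6. The annotated exon begins with the 30 bases shown (chr19:56382335-56382364, minus strand), with the first 3 in capitals, and an unannotated form begins 3 bases earlier in the intron.
Nrap exon 6 start: GGGtacacagaagaccgtgaacagcagcag
The longer, unannotated form had 14 of 61 reads of replicate 1 (23.0%, 95% limits 14.2 to 34.9) and 33 of 76 of replicate 2 (43.4%, 32.9 to 54.6). The share was lower in replicate 1, with intervals that overlap only narrowly, and Fisher's exact test gave an unadjusted exact p of 0.0181. Over all 265 pairs of acceptors 3 bases apart, in 246 genes, the adjusted exact p was 0.961. No pair passed by this test (0% called), 8 had an unadjusted p below 0.05, and the Nrap pair was the fifth lowest. As a whole structure of 41 exons the longer form had 10 reads in replicate 1 and 27 in replicate 2, against 40 and 32 reads of Nrap-201, and it was by far the most used of the 3 unannotated structures of Nrap found in both libraries, the others having 1 read in each. Of all Nrap reads, 8.94% in replicate 1 and 19.2% in replicate 2 were on models with a new splice site, against 3.15% and 3.57% over all genes.

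Many Nrap reads were on 1 incomplete model that starts in exon 17. Reads that cross junction 16 numbered 90 in replicate 1 and 100 in replicate 2, and those that cross junction 17 numbered 120 and 135. Most of this step is this model, of 25 exons and 3610 bases, which holds 27 and 33 reads. Its start in both libraries is the annotated edge of exon 17, and other incomplete models of Nrap also start at annotated exon edges. The shared edge therefore need not be where the reads begin. Where in exon 17 these reads begin, and why, was not tested. The last intron of Nrap, of 582 bases, was kept in 5 of 166 reads in replicate 1 and in 5 of 184 in replicate 2.

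**Figure D5:**
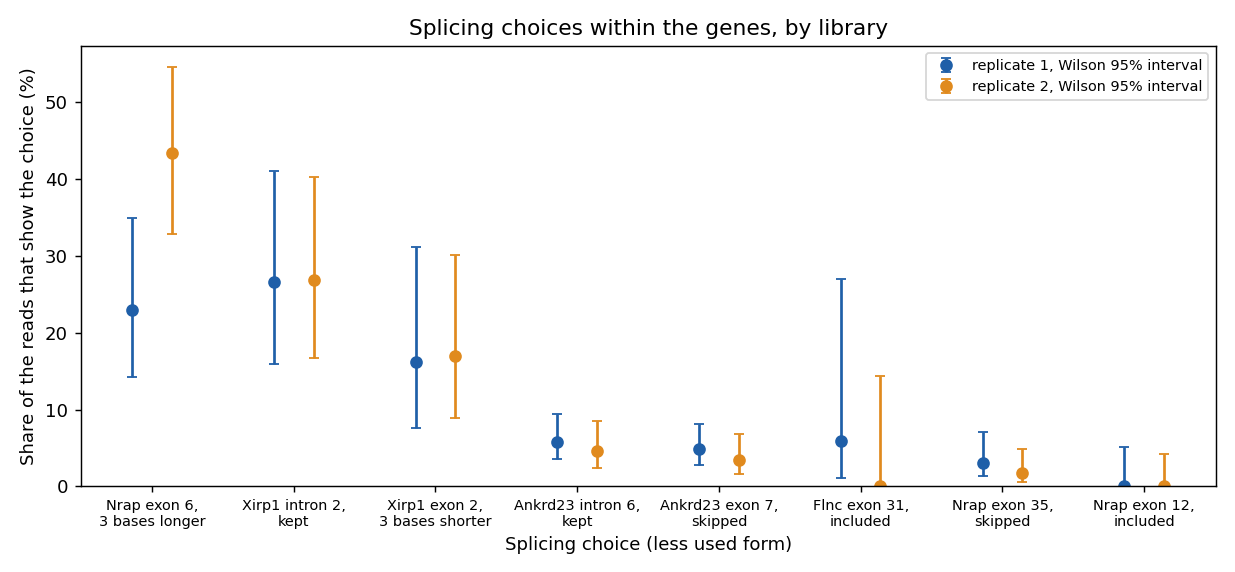
Share of reads (%) with the less used form of 8 splicing choices, replicate 1 left of replicate 2, with Wilson 95% intervals. The acceptor of Nrap exon 6 had the widest gap between libraries (23.0% and 43.4%), Xirp1 intron 2 was kept alike (26.7% and 26.9%), and Nrap exon 12 was in no read.

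Other genes known for stretch or for mechanical signals at Z-discs and cell contacts were set beside the 6. Of a list of 50, 48 had enough reads to be tested and 3 passed on adjusted p, 1 higher and 2 lower in replicate 1, of which 1 reached a fold of 2. These 3 calls come from a test that allows for counting error alone. With a preset variation of 0.2 between libraries (edgeR exact test), a value not estimated from these data, 0 of the 48 passed. The median log2 ratio of replicate 1 over replicate 2 was -0.03, against -0.05 over all tested genes and -0.22 over the 6 genes. Nppb, whose product is the B-type natriuretic peptide, a common marker of wall stress, had 59 reads in replicate 1 and 16 in replicate 2, a ratio of 3.04 (95% interval 1.73 to 5.66; adjusted exact p = 0.00312). Ankrd1, which often rises with Nppb under load, had a ratio of 1.06 in the same libraries. The atrial peptide gene Nppa had 1421 and 1413 reads, a ratio of 0.828 (0.769 to 0.892; adjusted exact p = 1.22e-04), and Tcap, which caps titin at the Z-disc, had 1900 and 1799, a ratio of 0.870 (0.815 to 0.928; adjusted exact p = 0.00349).

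The most abundant genes of that list exceeded all 6. Actn2, the alpha-actinin of the Z-disc, reached 2416 ± 28.7 CPM (n = 2), followed by Tcap at 2377 ± 234 and Nppa at 1825 ± 242 CPM. Csrp3, the muscle LIM protein, had 1422 ± 43.0 CPM, Fhl2, a LIM protein that binds titin, had 1226 ± 4.24, and Myoz2, a Z-disc protein that binds calcineurin, had 710 ± 42.9. Per kilobase of leading isoform, Actn2 had 795 CPM in replicate 1 and 808 in replicate 2, against 175 and 160 for Ankrd23. Ankrd2, the third muscle ankyrin repeat gene and one of skeletal muscle foremost, had 0 reads in both libraries, as had the calpain gene Capn3. A count of 0 allows up to 3.49 CPM in replicate 1 and 4.24 in replicate 2.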

How the data were processed

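Long reads of 2 heart libraries of 1 group were analysed. The authors deposited a table of read counts for each library, with a row for every transcript model, made on mm10 with GENCODE M21 and added models, per the file headers and accompanying text. The counts were whole numbers, not normalized or pooled. Aligner, software versions and filters: not given in the sources used here. Other deposited values, model lengths, exon numbers and coordinates, were in bases or exons per the file headers.

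The 6 genes, the lists and the tests were chosen with earlier results of these data known. A gene's count was the sum over its models, without spike-ins, and CPM was computed over annotated genes. Since 1 library against 1 leaves no residual degrees of freedom, edgeR's quasi-likelihood test of that contrast could not be fitted, and genes that had 10 reads or more over both libraries were tested by the exact conditional binomial test (two-sided, scipy 1.17.1), which compares 2 libraries, not conditions. Log2 ratios used 0.5 added reads. Annotated shares were tested with Fisher's exact test in genes with at least 20 reads in each library, acceptor pairs where the less used form had at least 5%. All p-values were adjusted by Benjamini-Hochberg over all features tested. The test of leading isoforms needed 20 annotated reads in each library and a leading share under 95%, which no member met, and 0.0964% of 1037 genes passed it. Exon and intron shares count reads whose junctions show the choice.

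All 6 genes were named. From the stretch list those that passed and the 6 with the highest mean were named, and of models the 3 most used annotated isoforms and the 3 most used unannotated structures found in both libraries. Ankrd2 and Capn3, at 0 reads, Ankrd39 and the splicing choices were named after their values were seen. Alternatives used edgeR 4.0.16 and DESeq2 1.42.0 factors, annotated models only, model minimums and leaving out a replicate. Removal of the length trend (lowess, span 0.3) and the work on acceptors, exons and introns were added after the data were seen. Tests were tried on simulated data. RefSeq matched 5 of 6 genes to upstream windows. Xirp1 had none.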

Additional observations from a re-analysis of the deposited data

Results flagged for a closer look

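Reads on the strand opposite Ankrd1 were found in both libraries, in data that no comparison used. An unannotated antisense gene at chr19:36112935-36118853 held 9 reads in replicate 1 and 9 in replicate 2, above the limit of 3 reads that a count of 0 allows. Of these, 5 and 7 were spliced. One intron, from 36115601 to 36117744, was found in both libraries with 4 and 5 reads, and a structure of 3 exons in 1 and 2. The left edge of the antisense gene rests on 1 single-exon read of replicate 1. Its spliced models start at 36115075 or 36115199 in replicate 1 and at 36115199 in replicate 2. Both positions are edges of annotated Ankrd1 exons, so the extent of the antisense gene is uncertain. The Ankrd1 gene itself had 250 and 195 reads. Whether the strand of each read was assigned correctly was not tested, so reads of the gene and of its antisense partner are told apart only as the authors' models do. Over the other genes, opposite-strand reads numbered 5 and 1 at Ankrd23, 1 and 0 at Flnc, 0 and 3 at Nrap, and 1 and 0 at Xirp2, where they belonged to the annotated Gm13601.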

How the results depend on the processing

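No member ratio passed under any of 28 alternative values, with adjusted p of 0.318 or more. Directions held except that the Xirp2 ratio was 1.001 with DESeq2 size factors and 1.01 with the length trend removed, and the Nrap ratio was 1.02 on annotated models only, where Flnc and Xirp2 had too few reads to be tested. The 30 calls over all genes became 107 with no fold minimum, 15 on annotated models, 4 with a preset variation of 0.2 (edgeR exact test) and 13 with the length trend removed. The 3 stretch-list genes that passed became 0 with the preset variation and stood at 2 to 3 otherwise. On annotated models only, levels were 38.7 CPM for Xirp1, 1.70 for Xirp2, 8.07 for Flnc and 62.2 for Nrap, since most of their reads were on other models. On models with at least 2 reads the annotated share was 79.0% for Ankrd23 and 0% for Xirp2, 10 genes passed the class test against 6, and the leading share of Nrap was 100%. With incomplete models added, the leading share of Flnc was 96.7%. Leaving out a replicate gives the value of the other one, which with 2 libraries says nothing of stability. The annotated share of Flnc is then 4.88% to 13.7%, against a mean of 9.30%. No paired analysis was possible because both libraries belong to 1 group. Depth limits Xirp1, Xirp2 and Flnc most, at 41 to 76 reads per library.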
